A study of Mus musculus with 6 samples.

Results

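The RNA levels of the 4 ErbB receptors (Egfr, Erbb2, Erbb3, Erbb4) and of 6 of their ligands (Areg, Ereg, Hbegf, Btc, Nrg1, Tgfa) were examined in mammary tumors of NeuT/ATTAC mice after IgG or anti-PD-1 monoclonal antibody (mAb) treatment. These 10 genes were taken by symbol from the 54532 Ensembl gene IDs measured in each tumor, because the tumors of this model are driven by Erbb2 expressed in the mammary gland. Of the 10, 8 had a mean FPKM (fragments per kilobase of exon scaled to library size) of at least 0.5 over the 6 tumors and were tested, and Ereg and Nrg1 did not reach it. Erbb4 reached it only through its levels in the IgG tumors.

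The series holds RNAseq of 3 tumors labelled IgG and 3 labelled anti-PD-1. All 6 came from NeuT/ATTAC mice, in which MMTV-NeuT mice of the FVB strain were crossed with FAT-ATTAC mice, of C57BL/6 origin and bred into FVB. The MMTV promoter drives the Erbb2 transgene in mammary epithelium, and the FAT-ATTAC transgene lets the dimerizer AP20187 ablate adipose tissue, which is followed by fibrosis. Every animal of both groups received 0.4 mg/kg AP20187 by i.p. injection from 6 weeks of age and 100 μg of antibody from 8 weeks of age, either the anti-PD-1 mAb or an isotype-matched IgG, so that there was no group without fibrosis induction. A legend of the study speaks of RNA pooled by group, whereas the values used here are 3 labelled tumor samples per group, and the p-values measure only the spread between those samples, which may be technical. The sources used here do not say whether reads of the transgene were counted on the mouse Erbb2 gene, so each Erbb2 value may hold the mouse gene alone or both, which cannot be told apart.

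ErbB receptors are tyrosine kinases of the cell surface that signal as dimers, mainly through RAS-MAPK and PI3K-AKT. ErbB2 has no known ligand and is the preferred partner of the others, ErbB3 has an impaired kinase and binds PI3K when it pairs with ErbB2, and this pair is known for its potency in mammary tumors driven by Erbb2. Areg and Tgfa bind EGFR, Hbegf, Btc and Ereg bind EGFR and ErbB4, and Nrg1 binds ErbB3 and ErbB4. Most of these ligands are made as membrane proteins and released by ADAM proteases.

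Among the receptors, Egfr and Erbb4 were lower and Erbb2 was higher in all 3 anti-PD-1 tumors than in any IgG tumor. The promoters of these 3 genes are shown because their RNA separated the groups in different directions. Each is the 250 bases before the RefSeq transcription start on the strand of the gene in GRCm38.p6, and lies at chr11:16751953-16752202 on the plus strand for Egfr, chr11:98412234-98412483 on the plus strand for Erbb2 and chr1:69108060-69108309 on the minus strand for Erbb4. They are written 5′ to 3′, and capitals mark matches to the motifs searched on both strands.
Egfr: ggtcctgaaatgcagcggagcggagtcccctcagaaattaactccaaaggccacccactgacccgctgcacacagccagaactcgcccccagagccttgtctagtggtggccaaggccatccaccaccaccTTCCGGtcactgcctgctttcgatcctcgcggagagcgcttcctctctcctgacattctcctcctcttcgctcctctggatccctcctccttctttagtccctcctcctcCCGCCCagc
Erbb2: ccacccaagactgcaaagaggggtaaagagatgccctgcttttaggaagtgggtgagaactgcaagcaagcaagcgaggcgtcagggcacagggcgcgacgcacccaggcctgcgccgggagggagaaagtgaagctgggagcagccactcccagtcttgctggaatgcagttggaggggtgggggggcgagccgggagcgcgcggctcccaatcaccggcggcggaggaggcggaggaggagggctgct
Erbb4: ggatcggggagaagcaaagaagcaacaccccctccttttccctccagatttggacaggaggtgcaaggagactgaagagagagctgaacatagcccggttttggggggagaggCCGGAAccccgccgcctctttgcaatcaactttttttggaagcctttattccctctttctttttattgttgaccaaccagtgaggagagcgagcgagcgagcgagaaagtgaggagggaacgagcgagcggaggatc
The motifs were the GC box GGGCGG, found in 32.7% of 32851 mouse promoter windows of this length, the TATA box TATAAA (12.4%), the AP-1 motif TGANTCA (6.75%), the STAT motif TTCNNNGAA (7.02%) and the ETS motif CCGGAA (12.0%). The Egfr window held 1 GC box and 1 ETS motif, both as the reverse complement. The Erbb4 window held 1 ETS motif, and none of these letters occurred in the Erbb2 window. The windows held 60.8% G and C for Egfr, 66.0% for Erbb2 and 54.0% for Erbb4, beside a median of 52.4% over all windows. In this model the transgene is transcribed from the MMTV promoter and not from the Erbb2 window.

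The libraries held between 22009893 and 25596232 reads, as implied by the value of 1 read, and correlated with each other across genes with r between 0.892 and 0.958. No pair of libraries was identical. Luminal epithelial markers were high in every tumor, with a summed FPKM of Krt8, Krt18, Krt19, Epcam and Cdh1 of 1893 to 2629 in IgG and 2490 to 3622 in anti-PD-1 tumors, so that epithelial RNA was present in each of the labelled tumors. T cell markers summed to between 0.488 and 3.99 FPKM over the 6 tumors and adipocyte markers to between 1.00 and 6.69 FPKM. Skeletal muscle markers summed to 119 FPKM in IgG replicate 2, 67.7 FPKM in anti-PD-1 replicate 1 and 122 FPKM in anti-PD-1 replicate 2, and to between 6.30 and 8.90 FPKM in the other tumors.

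By level, Erbb3 was the most abundant member, with a mean of 66.7 ± 10.5 FPKM (SD, n = 6) over all tumors, followed by Erbb2 with 24.5 ± 4.04 FPKM. The Erbb2 values may lack the reads of the transgene, so its place below Erbb3 holds only for the values as counted. Hbegf (11.1 ± 7.65 FPKM), Tgfa (10.2 ± 4.58 FPKM) and Egfr (8.47 ± 3.18 FPKM) came next. The place of Hbegf came from the anti-PD-1 tumors, since its mean of 17.5 FPKM there was above that of Tgfa (10.3 FPKM) and Egfr (6.07 FPKM), whereas in IgG tumors its mean of 4.67 FPKM was below theirs (10.0 and 10.9 FPKM). Areg had 3.58 ± 3.41 FPKM, Btc 2.91 ± 0.850 FPKM, Erbb4 1.11 ± 1.52 FPKM, Nrg1 0.436 ± 0.172 FPKM and Ereg 0.0323 ± 0.0505 FPKM. Of the 9 pairs of neighbours in this order, 4 kept their order in all 6 tumors: Erbb3 above Erbb2, Erbb2 above Hbegf, Egfr above Areg, and Nrg1 above Ereg. For each of these the exact sign-flip permutation test gave p = 0.03125 (two-sided, n = 6), the smallest that 6 tumors allow, and an adjusted p of 0.0703 over the 9 pairs. The pairs and their direction were taken from the same 6 tumors, over both groups, so the p-values of this order are a description. Hbegf was above Tgfa in 4 of 6 tumors, Tgfa above Egfr in 4 of 6, Areg above Btc in 4 of 6, Btc above Erbb4 in 5 of 6, and Erbb4 above Nrg1 in 2 of 6. The exact sign-flip permutation test gave these 5 pairs p between 0.0625 and 0.938 (n = 6). The 0.0625 was that of Btc above Erbb4, with a mean log2 difference of 1.14 and an SD of 0.94, and the differences of the other 4 pairs were smaller than their SD.

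**Figure D1:**
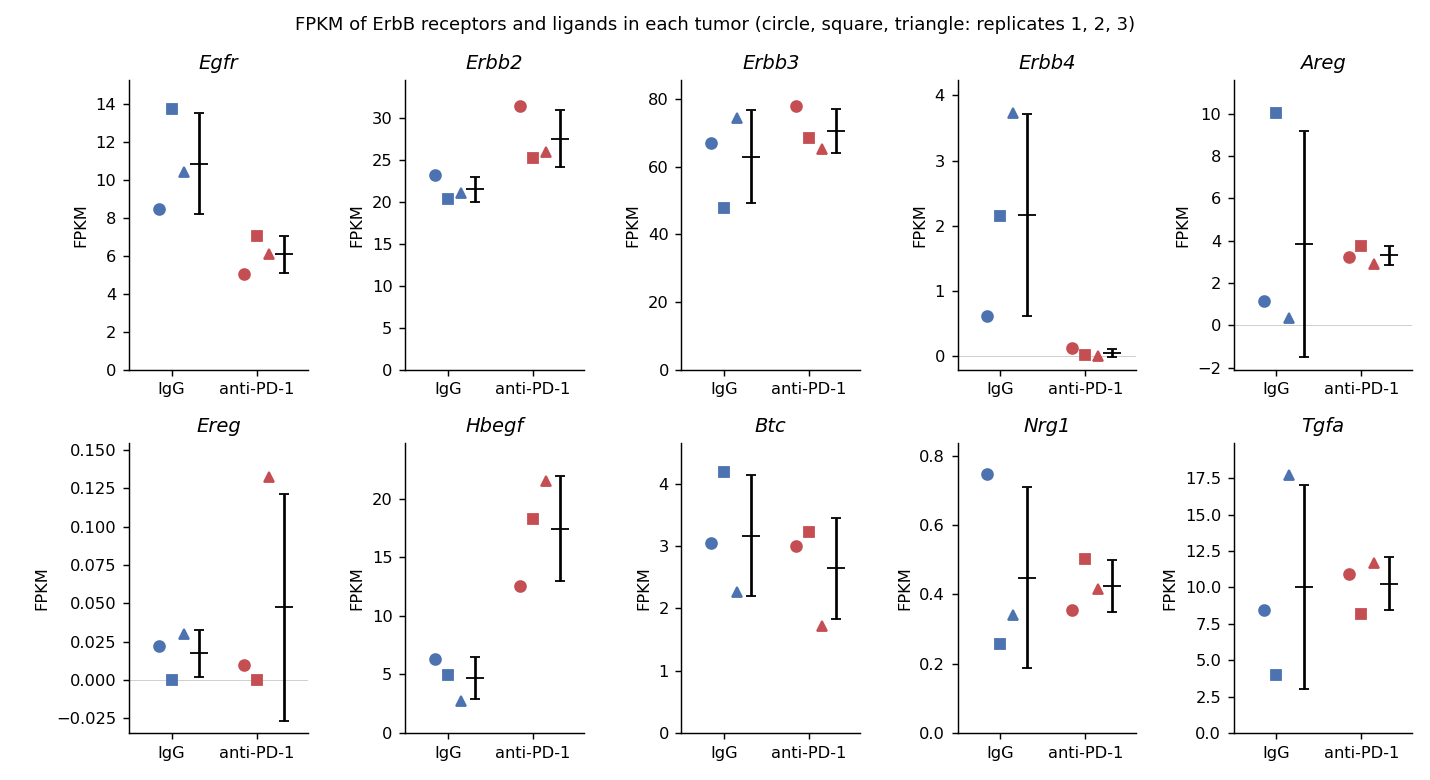
FPKM of the 10 genes (y axis, from each gene's own scale) in the 3 IgG tumors (blue) and the 3 anti-PD-1 tumors (red), with the mean and SD of each group in black. Egfr and Erbb4 are lower and Erbb2 and Hbegf higher in each anti-PD-1 tumor than in any IgG tumor, and the groups overlap for the other 6 genes.

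Anti-PD-1 and IgG tumors were compared gene by gene on log2(FPKM + 1) with limma across all 15069 genes tested. None of the 8 members tested passed an adjusted p of 0.05, nor did any other gene (0.0% of 15069), with 1848 genes at an unadjusted p under 0.05. Limma's voom on the reads recovered from the FPKM also passed none, with 1841 of 15064 genes at an unadjusted p under 0.05. At an unadjusted p under 0.05 there were 3 members, Hbegf with the higher mean in anti-PD-1 tumors and Egfr and Erbb4 with the lower, beside 12.3% of all genes tested (6.22% higher and 6.05% lower). Since Erbb4 could only enter the test through its IgG tumors, its call is a description, and 2 of the 7 other members tested were at an unadjusted p under 0.05. The groups did not overlap for 4 members, Erbb2 and Hbegf (higher in anti-PD-1) and Egfr and Erbb4 (lower), beside 18.1% of all genes tested (9.3% higher and 8.75% lower), or for 3 of 7 with Erbb4 left out. With no filter on low FPKM, so that all 10 genes entered, 4 members were at an unadjusted p under 0.05, Erbb2 being added, beside 8.01% of 28732 genes. With 3 tumors against 3, the exact permutation test of a single gene cannot give a two-sided p below 0.1. Values of single tumors are given below in the order of replicates 1, 2 and 3.

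Erbb2 (ENSMUSG00000062312) is the receptor whose transgene drives these tumors, and the mouse gene lies on the plus strand of chromosome 11 from 98412470 to 98437716 (GRCm38). Its level was 23.2, 20.3 and 21.0 FPKM in the IgG tumors against 31.4, 25.2 and 25.9 FPKM after anti-PD-1, from 2539 to 4186 reads a tumor. All 3 anti-PD-1 tumors were above all 3 IgG tumors. The means were 21.5 ± 1.49 and 27.5 ± 3.39 FPKM (SD, n = 3 each), a 1.28-fold ratio. On the log2(FPKM + 1) scale the difference was 0.34 (SE 0.15, 95% interval -0.02 to 0.71), with an adjusted p of 0.424 in limma and p = 0.1 in the exact permutation test (two-sided). Anti-PD-1 replicate 1 was the highest, and without it the difference was 0.24. Of the 5 luminal markers, 3 had a positive log2 difference, and their summed levels overlapped between the groups. Epcam was above the IgG range in every anti-PD-1 tumor, with 690 to 885 FPKM in IgG and 988 to 1150 FPKM in anti-PD-1 tumors. Krt19 was below it in every anti-PD-1 tumor, with 7.84, 77.9 and 7.46 FPKM in the IgG tumors against 4.09, 5.27 and 1.70 FPKM after anti-PD-1 (log2 difference -2.03, unadjusted p = 0.0470, adjusted p = 0.404 in limma). The part of the luminal cells in the Erbb2 difference was not tested. In whole-tumor RNA, more cells that express a gene and more RNA per cell cannot be told apart, for this gene or for any of the others.

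Egfr (ENSMUSG00000020122), the receptor of most of the ligands measured, lies on the plus strand of chromosome 11 from 16752203 to 16918158. It was at 8.46, 13.7 and 10.4 FPKM in the IgG tumors against 5.06, 7.07 and 6.08 FPKM after anti-PD-1. Each anti-PD-1 tumor was below each IgG tumor. The means were 10.9 ± 2.66 and 6.07 ± 1.00 FPKM (SD, n = 3 each), so that the IgG mean was 1.79 times the anti-PD-1 mean. The log2 difference was -0.73 (SE 0.21, 95% interval -1.23 to -0.23), with an unadjusted p of 0.0101 and an adjusted p of 0.344 in limma, rank 437 among the genes tested. It lay between -0.88 and -0.56 when any tumor was left out. The antisense gene Egfros overlaps Egfr at a mean of 0.131 FPKM, and the strand setting of the counting is not given in the sources used here. Summed basal and myoepithelial markers were also lower in anti-PD-1 tumors, with 7.10 to 12.2 FPKM in IgG and 5.07 to 5.77 FPKM in anti-PD-1 tumors. Of these 5 markers, 4 were tested and all 4 had a lower mean in anti-PD-1 tumors, Trp63 was not tested, and none was at 0 in every tumor. The part of these cells in the Egfr difference was not tested.

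Erbb3 (ENSMUSG00000018166), the kinase-impaired partner of ErbB2, lies on the minus strand of chromosome 10 from 128567523 to 128589652. It was at 66.9, 47.7 and 74.4 FPKM in the IgG tumors against 77.8, 68.4 and 65.3 FPKM after anti-PD-1. The groups overlapped, and IgG replicate 2 was the lowest tumor. The means were 63.0 ± 13.8 and 70.5 ± 6.51 FPKM (SD, n = 3 each), and the log2 difference was 0.19 (95% interval -0.29 to 0.67, adjusted p = 0.735 in limma). Without IgG replicate 2 it was 0.00.

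Erbb4 (ENSMUSG00000062209), a receptor for neuregulins that is known for its part in lactation, lies on the minus strand of chromosome 1 from 68032186 to 69108059. It was at 0.621, 2.14 and 3.72 FPKM in the IgG tumors, from 169, 636 and 1123 reads. After anti-PD-1 it was at 0.126, 0.0234 and 0 FPKM, on 40, 7 and 0 reads, and the 0 of anti-PD-1 replicate 3 allows up to 0.0102 FPKM (3 reads, counting error only). Every IgG tumor was above every anti-PD-1 tumor, and the IgG tumors differed among themselves, replicate 1 being the lowest. The means were 2.16 ± 1.55 and 0.0499 ± 0.0673 FPKM (SD, n = 3 each), a ratio of 43.3 that rests on few reads, as it was 185 without anti-PD-1 replicate 1, 28.9 without anti-PD-1 replicate 3 and 27.7 without IgG replicate 3. The log2(FPKM + 1) difference was -1.46 (SE 0.38, 95% interval -2.36 to -0.56, unadjusted p = 0.00625, adjusted p = 0.344 in limma), and the added 1 shrinks it: with 0.1 added it was -3.70, and with limma's voom on the recovered reads -6.60. Summed milk protein genes (Csn2, Csn1s1, Wap, Lalba, Glycam1), which mark secretory epithelium, were at 309, 1533 and 1291 FPKM in the IgG tumors against 293, 134 and 621 FPKM after anti-PD-1. All 5 had a negative log2 difference, their summed levels overlapped between the groups, and their part in the Erbb4 difference was not tested.

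The 4 receptors together summed to between 83.8 and 114 FPKM, and the groups overlapped. Erbb3 made up 56.8% to 68.0% of this sum and exceeded Erbb2 between 2.35-fold and 3.54-fold. Erbb2 made up 19.2% to 24.2% in IgG and 25.0% to 27.4% in anti-PD-1 tumors. Egfr made up 8.54% to 16.4% in IgG and 4.43% to 7.02% in anti-PD-1 tumors, and Erbb4 0.627% to 3.40% in IgG and at most 0.111% in anti-PD-1 tumors. These shares are of RNA and not of protein. The Erbb2 values may lack the reads of the transgene, so the shares and the ratio describe the values as counted, which may not be all Erbb2 RNA.

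**Figure D2:**
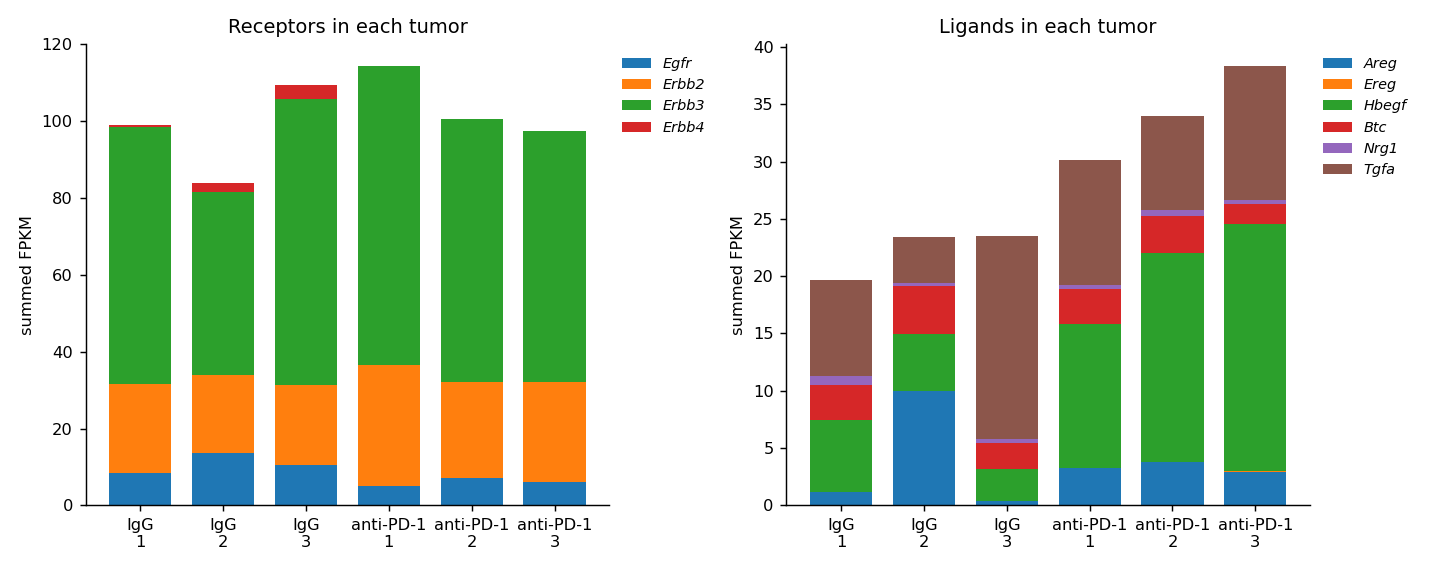
Summed FPKM of the 4 receptors (left) and of the 6 ligands (right) in each tumor (x axis), each bar starting at 0 and split by gene. Erbb3 is the largest part of every receptor bar, and the ligand bars of the anti-PD-1 tumors (30.2 to 38.3 FPKM) are above those of the IgG tumors (19.7 to 23.5 FPKM), with Hbegf the largest part in each anti-PD-1 tumor and no such separation without it.

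Hbegf was the ligand with the largest log2 difference among those tested. The gene (ENSMUSG00000024486) lies on the minus strand of chromosome 18 from 36504927 to 36515805 and encodes a membrane-anchored growth factor for EGFR and ErbB4. Its level was 6.28, 4.97 and 2.76 FPKM in the IgG tumors against 12.6, 18.3 and 21.5 FPKM after anti-PD-1. The lowest anti-PD-1 tumor was above the highest IgG tumor. The means were 4.67 ± 1.78 and 17.5 ± 4.51 FPKM (SD, n = 3 each), a 3.74-fold ratio. The log2 difference was 1.73 (SE 0.30, 95% interval 1.03 to 2.42), and its unadjusted p of 5.62e-04 in limma ranked 19 of 15069, with an adjusted p of 0.344. Leaving out any tumor gave between 1.46 (without IgG replicate 3) and 1.94 (without IgG replicate 1). The exact permutation test gave p = 0.1 (two-sided, n = 3 each), the smallest it allows. Macrophages are known to make Hbegf. Of the 5 macrophage markers all had a positive log2 difference (0.0055 to 0.76), beside 50.8% of all genes tested. An unadjusted p under 0.05 in limma was found for 1 of these 5 markers, beside 12.3% of all genes tested. Their summed FPKM was 133 to 226 in IgG and 172 to 270 in anti-PD-1 tumors, which overlapped, none was at 0, and 1 of them, Cd68, did not overlap between the groups (15.8 ± 2.27 and 27.4 ± 4.59 FPKM, SD, n = 3 each, adjusted p = 0.344 in limma). The part of macrophages in the Hbegf difference was not tested.

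**Figure D3:**
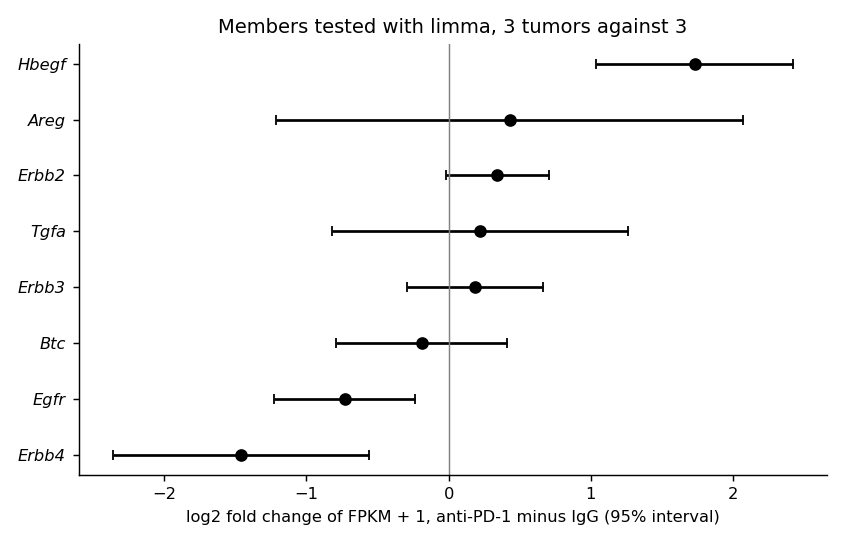
Difference in log2(FPKM + 1) between anti-PD-1 and IgG tumors (x axis) with its 95% interval for the 8 genes tested with limma. The intervals of Hbegf (1.03 to 2.42), Egfr (-1.23 to -0.23) and Erbb4 (-2.36 to -0.56) lie on 1 side of 0, and those of the other 5 genes include it.

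Tgfa (ENSMUSG00000029999), an EGFR ligand on the plus strand of chromosome 6 (86195223 to 86275719), was at 8.43, 4.00 and 17.7 FPKM in the IgG tumors against 10.9, 8.19 and 11.7 FPKM after anti-PD-1. The 3 IgG tumors enclosed the range of the anti-PD-1 tumors. The means were 10.0 ± 6.998 and 10.3 ± 1.83 FPKM (SD, n = 3 each), and the log2 difference was 0.22 (95% interval -0.82 to 1.26, adjusted p = 0.863 in limma). It was -0.25 without IgG replicate 2 and 0.70 without IgG replicate 3.

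Areg (ENSMUSG00000029378), the EGFR ligand known for its role in ductal growth of the mammary gland, lies on the plus strand of chromosome 5 from 91139599 to 91148432. It was at 1.16, 10.0 and 0.371 FPKM in the IgG tumors, from 31, 292 and 11 reads. After anti-PD-1 it was at 3.25, 3.77 and 2.91 FPKM, from 101, 111 and 84 reads. IgG replicate 2 stood far above the other tumors and the other 2 IgG tumors were below every anti-PD-1 tumor. The group means were 3.85 ± 5.35 and 3.31 ± 0.432 FPKM (SD, n = 3 each), lower in anti-PD-1, whereas the log2 difference was 0.43 (95% interval -1.21 to 2.07, adjusted p = 0.829 in limma), which is higher in anti-PD-1. Without IgG replicate 2 it was 1.32 (unadjusted p = 0.00245, adjusted p = 0.760 in limma), and without IgG replicate 3 it was -0.18. IgG replicate 2 was also the highest tumor for the luminal keratin Krt19, with 77.9 FPKM beside 1.70 to 7.84 FPKM in the other 5, and for the milk protein gene Csn2, with 378 FPKM beside 5.09 to 136 FPKM in the other 5. Its luminal markers together did not stand out, their sum of 2315 FPKM being below that of IgG replicate 1 and of all 3 anti-PD-1 tumors.

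Btc (ENSMUSG00000082361), betacellulin, lies on the minus strand of chromosome 5 from 91357261 to 91402994, near Areg and Ereg. It was at 3.06, 4.19 and 2.26 FPKM in the IgG tumors against 2.999, 3.22 and 1.71 FPKM after anti-PD-1. The groups overlapped. The log2 difference was -0.19 (95% interval -0.79 to 0.41, adjusted p = 0.793 in limma), and it was 0.010 without anti-PD-1 replicate 3.

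Nrg1 (ENSMUSG00000062991), a ligand of ErbB3 and ErbB4 on the minus strand of chromosome 8 (31814551 to 32884029), was at 0.746, 0.258 and 0.340 FPKM in the IgG tumors against 0.355, 0.502 and 0.415 FPKM after anti-PD-1. The groups overlapped (exact permutation p = 1.0, two-sided, n = 3 each), on 64 to 170 reads a tumor. Ereg (ENSMUSG00000029377), epiregulin, on the plus strand of chromosome 5 (91074622 to 91093646), had 2, 0 and 3 reads in the IgG tumors against 1, 0 and 13 reads after anti-PD-1. Only anti-PD-1 replicate 3, with 0.133 FPKM, was above the 0.0284 to 0.0330 FPKM that 3 reads stand for. No difference in Ereg was detectable at this depth.

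The 6 ligands summed to 19.7, 23.4 and 23.5 FPKM in the IgG tumors against 30.2, 34.0 and 38.3 FPKM after anti-PD-1. Without Hbegf the other 5 summed to 13.4, 18.5 and 20.7 FPKM against 17.6, 15.7 and 16.8 FPKM, and the groups overlapped. Hbegf made up 31.9%, 21.2% and 11.8% of the sum in the IgG tumors and 41.8%, 53.8% and 56.1% in the anti-PD-1 tumors. The ligand with the largest share was Tgfa in IgG replicates 1 and 3 (42.8% and 75.5%), Areg in IgG replicate 2 (42.7%), and Hbegf in every anti-PD-1 tumor. Among these 6, the IgG tumors thus differed in their leading ligand. Nrg2, which is not in this sum, was above that ligand in IgG replicates 1 and 2 (10.5 and 12.8 FPKM).

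Of the 5 other ErbB ligands, 2 were tested, Nrg2 and Egf, and Egf reached the minimum mean only through its level in IgG replicate 3. Nrg2, which binds ErbB3 and ErbB4, was the most abundant neuregulin, with 10.5, 12.8 and 14.1 FPKM in the IgG tumors against 11.5, 9.66 and 8.23 FPKM after anti-PD-1 (log2 difference -0.32, SE 0.18, adjusted p = 0.513 in limma). Egf, the founding EGFR ligand, was at 0.254, 0.591 and 4.32 FPKM in IgG and at 0.319, 0.0731 and 0.422 FPKM in anti-PD-1 tumors. The groups overlapped, and its log2 difference of -0.80, a description because of how it entered the test, was -0.16 without IgG replicate 3. Epgn was at 0.0227 to 0.507 FPKM, Nrg4 (chromosome 9) at 0.0554 to 0.229 FPKM, and Nrg3 was listed at 0 in all 6 tumors.

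Over the 6 tumors, Erbb2 was set against the 9 other members and the mean of the luminal markers. Egfr ran in exactly the opposite order to Erbb2 (Spearman's rho = -1.0, exact permutation p = 0.00278, adjusted p = 0.0278 over the 10 relations, n = 6). Pearson's r was -0.95 (exact permutation p = 0.00556, adjusted p = 0.0556), and it was -0.99 without IgG replicate 2 and anti-PD-1 replicate 1, the tumors farthest from the Erbb2 median. On the same 4 tumors r turned from 0.61 to -0.85 for Erbb3 and from -0.44 to 0.52 for the luminal mean, and moved from 0.05 to 0.96 for Areg, so r over 4 tumors says little. The groups did not overlap for Erbb2 or Egfr, so the values of this pair include the difference between treatments. The permutations ran over all 6 tumors and did not keep to the groups, so their p-values include it too. Each statistic was adjusted on its own over the 10 relations, and by Pearson's r none passed an adjusted p of 0.05. For Egfr, r over the deviations from the group means was -0.82, as a description. For Erbb4 r was -0.80 (exact permutation p = 0.0472, adjusted p = 0.236, rho = -0.77, n = 6) and -0.29 within groups. For Hbegf r was 0.72 (exact permutation p = 0.1, adjusted p = 0.333, rho = 0.77, n = 6) and -0.26 within groups. For the luminal marker mean r was -0.44 (exact permutation p = 0.361, adjusted p = 0.722, rho = -0.26, n = 6). The genes whose log2 levels were most like those of Erbb2 over the 6 tumors were Dtnbp1 (r = 0.996), Tlnrd1 (0.992), Gas2l1 (0.991), Psme3 (0.991) and Drap1 (0.988), and 280 of the genes tested had r over 0.9.

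The genes around Erbb2 on chromosome 11 were followed because genes of this segment are co-amplified with ERBB2 in human breast cancer. Of 20 listed neighbours, 15 were tested, 10 with a higher and 5 with a lower mean log2 level in anti-PD-1 tumors and a median difference of 0.16, beside 0.01 over all genes tested and 0.07 over the 1252 genes tested on chromosome 11. None passed the adjusted p. An unadjusted p under 0.05 was found for 2 of 15, Stard3 and Ppp1r1b, near the 12.3% of all genes tested, and the groups did not overlap for 2 of 15, Stard3 and Grb7, beside 18.1% of all genes. Stard3, a sterol transporter of late endosomes whose start lies 54.1 kb before the start of Erbb2, was at 18.3, 12.6 and 13.5 FPKM in the IgG tumors against 19.5, 25.6 and 26.0 FPKM after anti-PD-1, with no overlap (log2 difference 0.65, SE 0.20, unadjusted p = 0.0125, adjusted p = 0.347 in limma). Ppp1r1b had 2.68 ± 1.15 and 6.05 ± 3.52 FPKM (SD, n = 3 each) and overlapped. Grb7, an adaptor that binds ErbB2, whose start lies 33.9 kb after the start of Erbb2, had 21.3 ± 4.15 and 28.1 ± 0.972 FPKM (SD, n = 3 each), with no overlap and an adjusted p of 0.414 in limma. Mien1, on the opposite strand, whose lowest coordinate lies 25.2 kb after that of Erbb2 and which shares 9 bases with it, had 36.7 ± 9.94 and 50.2 ± 7.91 FPKM (SD, n = 3 each) and overlapped. The neighbour with the smallest p among those lower in anti-PD-1 tumors was Nr1d1, with a log2 difference of -0.32 (adjusted p = 0.5998 in limma). Ppp1r1b, Grb7 and Mien1 were picked after their values were seen.

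**Figure D4:**
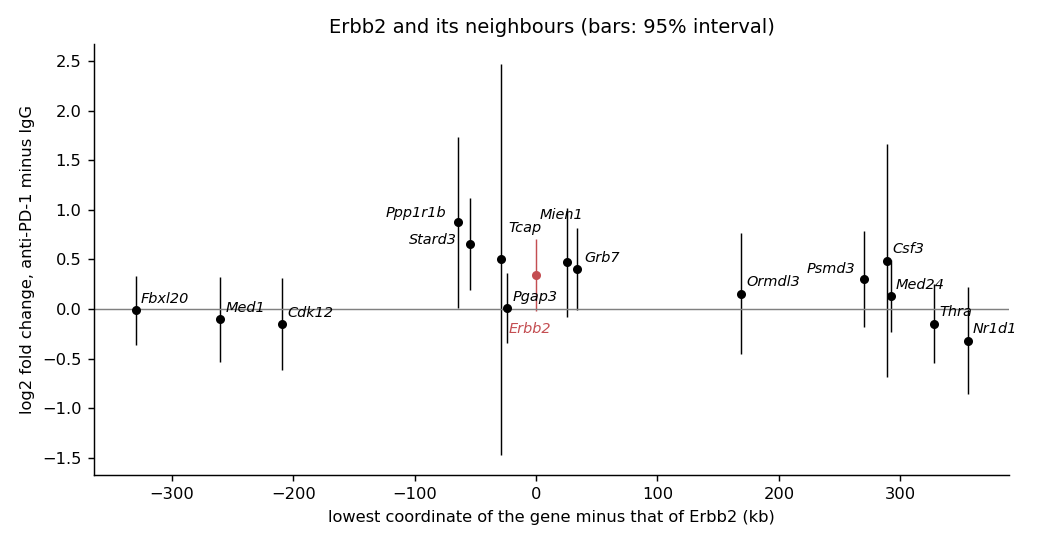
Difference in log2(FPKM + 1) between anti-PD-1 and IgG tumors (y axis, bars for the 95% interval from limma) for Erbb2 (red) and its 15 tested neighbours, by the distance of their lowest coordinate from that of Erbb2 in kb (x axis). Ppp1r1b (0.88) is the highest and Nr1d1 (-0.32) the lowest of the 16 points, and Erbb2 is at 0.34.

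The wider pathway was followed in 8 lists with 112 genes, of which 100 were tested, the neighbours of Erbb2 among them. At an unadjusted p under 0.05 there were 14 genes (of 100, beside 12.3% of all genes), 8 higher and 6 lower in anti-PD-1 tumors, and none passed the adjusted p. A positive log2 difference was found for 52 of the 100, beside 50.8% of all genes tested. The median log2 difference was 0.01 over the lists and 0.01 over all genes tested. Chromosomes 4 and 9 stood apart in these tumors, with median differences of -0.40 over 926 genes and -0.36 over 798 genes, of which 83.6% and 82.3% had a negative difference. No member lies on either. Of the 12 pathway genes tested there, 11 were lower in anti-PD-1 tumors, near the share of all genes of those chromosomes, and 37 of the 88 elsewhere. Pik3r3 was the 1 that was higher. The chromosome of each gene on 4 or 9 is given where the gene is named, and the part of this shift in their values was not tested.

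Of the 9 genes for ligand shedding, 5 had a higher and 4 a lower mean log2 level in anti-PD-1 tumors (median 0.06). Frmd8, which stabilizes the iRhom complex with ADAM17, had the smallest p, with 21.2 ± 7.50 and 33.5 ± 6.14 FPKM (SD, n = 3 each) and a log2 difference of 0.69 (SE 0.27, adjusted p = 0.389 in limma). The sheddase Adam10, on chromosome 9, had 31.1 ± 6.81 and 20.9 ± 5.80 FPKM (SD, n = 3 each, adjusted p = 0.424 in limma). Adam17, the main sheddase of Hbegf, Areg and Tgfa, had 13.0 to 15.9 FPKM in IgG and 12.7 to 18.1 FPKM in anti-PD-1 tumors and was picked after its values were seen.

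Of the 16 genes that attenuate the receptors, 14 were tested, 6 higher and 8 lower (median -0.10). An unadjusted p under 0.05 was found for 3 of 14, beside 12.3% of all genes tested (6.05% lower). These were Errfi1, Cbl and Lrig3, each lower in anti-PD-1 tumors, and the first pair lie on chromosomes 4 and 9, where 83.6% and 82.3% of all genes had a negative difference. Cbl and Lrig3 complete the count and were not chosen by the rule for named genes. Errfi1 (chromosome 4), the MIG6 inhibitor of the EGFR kinase, was at 72.2, 71.4 and 88.3 FPKM in the IgG tumors against 58.4, 48.6 and 48.6 FPKM after anti-PD-1, with no overlap (log2 difference -0.56, SE 0.17, adjusted p = 0.346 in limma). Cbl (chromosome 9), the ubiquitin ligase of EGFR, had a log2 difference of -0.53 and Lrig3 one of -0.43 (adjusted p = 0.397 and 0.399 in limma). Cblc had the smallest p among those higher in anti-PD-1 tumors, with 11.6 ± 0.690 and 13.5 ± 3.63 FPKM (SD, n = 3 each).

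Among partners and adaptors, 15 of 17 were tested, 8 higher and 7 lower (median 0.04). At an unadjusted p under 0.05 were Shc1 and Hsp90ab1 (higher in anti-PD-1 tumors) and Nck1 (lower), 3 of 15 beside 12.3% of all genes tested. Shc1, the adaptor that links the receptors to RAS, was at 22.1, 19.5 and 16.4 FPKM in the IgG tumors against 27.2, 26.8 and 26.0 FPKM after anti-PD-1, with no overlap (log2 difference 0.46, SE 0.16, adjusted p = 0.362 in limma). Nck1, an adaptor on chromosome 9, had 22.3 ± 6.08 and 11.5 ± 1.06 FPKM (SD, n = 3 each), with no overlap and an adjusted p of 0.344 in limma. Hsp90ab1, a chaperone of ErbB2 named to complete the count, had 401 to 607 FPKM in IgG and 711 to 844 FPKM in anti-PD-1 tumors (adjusted p = 0.366 in limma).

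In the RAS-MAPK core all 13 genes were tested, 7 higher and 6 lower (median 0.00). Map2k2, the MEK2 kinase, had 16.4 ± 1.67 and 24.4 ± 3.56 FPKM (SD, n = 3 each, log2 difference 0.54, adjusted p = 0.352 in limma). Nf1, which turns RAS off, was at 17.2, 21.0 and 84.9 FPKM in the IgG tumors against 11.6, 9.83 and 12.7 FPKM after anti-PD-1, with no overlap. IgG replicate 3 stood far above the rest, and the log2 difference of -1.40 was -0.69 without it (adjusted p with it 0.387 in limma).

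In the PI3K-AKT core all 15 genes were tested, 4 higher and 11 lower (median -0.06). Pik3r3, a regulatory subunit of PI3K on chromosome 4, was at 9.49, 5.60 and 5.09 FPKM in the IgG tumors against 12.4, 11.2 and 14.5 FPKM after anti-PD-1, with no overlap (log2 difference 0.87, SE 0.24, adjusted p = 0.344 in limma). Pik3cb, a catalytic subunit on chromosome 9, had 7.45 ± 2.14 and 4.77 ± 0.526 FPKM (SD, n = 3 each, adjusted p = 0.414 in limma).

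Of the 18 genes that MAPK signaling is known to induce, all were tested, 13 higher and 5 lower (median 0.18). Spred3, a feedback inhibitor of the pathway, had 2.08 ± 0.531 and 3.68 ± 0.606 FPKM (SD, n = 3 each, log2 difference 0.61, adjusted p = 0.355 in limma). Epha2, an ephrin receptor on chromosome 4, was at 26.8, 72.9 and 96.6 FPKM in the IgG tumors against 11.6, 14.001 and 15.5 FPKM after anti-PD-1. Every IgG tumor was above every anti-PD-1 tumor. Its log2 difference was -2.00 (SE 0.44, adjusted p = 0.344 in limma), and without IgG replicate 1 it was -2.53 with an adjusted p of 0.0351, in a range of 0.0351 to 0.760 over the alternatives.

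The medians of the lists moved when 1 tumor was left out. That of the other ErbB ligands, which rests on Nrg2 and Egf alone, was -0.56, and it ranged from -0.82 (IgG replicate 1 left out) to -0.19 (IgG replicate 3 left out). The other 7 medians lay between -0.10 and 0.18. That of ligand shedding ranged from 0.0085 (IgG replicate 1 left out) to 0.25 (anti-PD-1 replicate 2 left out), and that of the MAPK-induced genes 0.10 without IgG replicate 1 and 0.31 without IgG replicate 3. The median of the neighbours of Erbb2 was 0.08 without anti-PD-1 replicate 2. In the same setting that of the attenuators was -0.02 and that of the PI3K-AKT core -0.02, which was -0.12 without anti-PD-1 replicate 3. The medians of the partners and adaptors (-0.04 to 0.08) and of the RAS-MAPK core (-0.06 to 0.09) took both signs, the lowest without IgG replicate 3 and the highest without anti-PD-1 replicate 3.

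**Figure D5:**
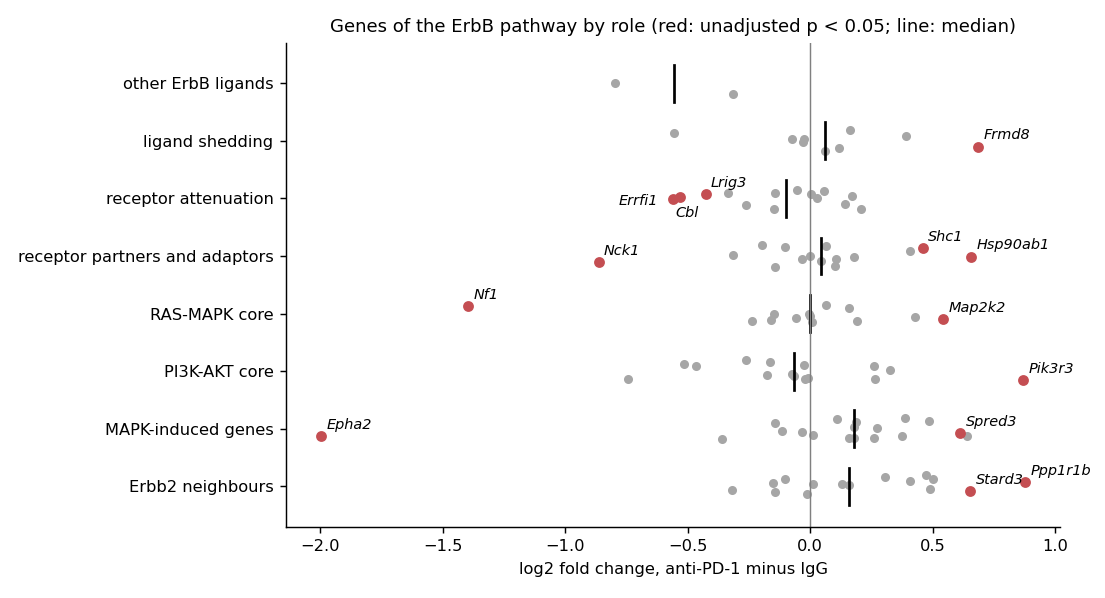
Difference in log2(FPKM + 1) between anti-PD-1 and IgG tumors (x axis) for the 100 tested genes of the 8 lists (y axis), each point 1 gene (Grb7 stands in 2 lists), red at an unadjusted p under 0.05 and the line at the list's median. The medians of the 7 lists with 9 or more tested genes lie between -0.10 and 0.18, and Epha2 (-2.00) and Nf1 (-1.40) are the farthest from 0.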

How the data were processed

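RNAseq of 3 IgG and 3 anti-PD-1 NeuT/ATTAC tumors was used, grouped by the sample titles. The authors deposited FPKM values for each tumor. Their processing notes name FastQC 0.11.9, Cutadapt 3.5, Bowtie2 2.4.1, RSEM 1.3.1 and mm10, and how the FPKM was made is not given in the sources used here. Symbols, coordinates and exon lengths came from GENCODE M21 (GRCm38), which held 54495 of 54532 gene IDs. FPKM times exon length gave whole reads, within 0.1, for 97.0% to 97.3% of detected values. For Hbegf this needed a length of 2373 bases, the shortest that worked, in place of 4834, so its reads are less certain.

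FPKM was divided by median-of-ratios factors (0.996 to 1.00), 1 was added, and log2 values were kept for 15069 genes averaging 0.5 FPKM or more. They were compared with limma 3.58.1 in R 4.3.3 (lmFit, eBayes with an intensity trend, two-sided, Benjamini-Hochberg adjustment). FPKM printed is as deposited. The deposited unit gives no counts, so no count model was the main test. Exact permutation tests were run in Python 3.11.15 with scipy 1.17.1. Depth limits use 3 reads and cover counting error only. The scripts were tested on simulated data. Promoters came from RefSeq (GRCm38.p6), where 6 of the 10 genes were found.

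The rule for the members used no measured value, but members and gene lists were chosen with earlier results of these data known. Genes named were the members, the other ErbB ligands, the tested gene with the smallest p in each direction of each list, and the 5 genes most correlated with Erbb2. Other genes are marked in the text or are cell type markers. The marker lists for fibroblasts (45.3 to 173 FPKM summed, over all tumors), endothelium (10.0 to 21.7), Schwann cells (200.1 to 311) and epidermis (0.932 to 2.02) overlapped between the groups. Alternatives were 0.1 added, no filter, a minimum mean of 2 FPKM, quantile normalization, no rescaling of the deposited FPKM, no trend, a replicate block, voom on recovered reads, and leaving out each tumor.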

Additional observations from a re-analysis of the deposited data

How the results depend on the processing

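The log2 differences of the 8 members tested were recomputed in 111 further values under 14 alternatives, of which 108 kept their direction and their side of the adjusted threshold. The other 3 reversed, each without 1 tumor: Tgfa (-0.25 to 0.70 over the tumors left out, reversed without IgG replicate 2), Areg (-0.18 to 1.32, reversed without IgG replicate 3) and Btc (-0.35 to 0.010, reversed without anti-PD-1 replicate 3). Members at an unadjusted p under 0.05 numbered 3 in the reported test (12.3% of all genes) and 4 with no filter (8.01%). They numbered 2 with a mean FPKM of at least 2 (13.8%), where Erbb4 was not tested. Dropping 1 tumor gave 3 to 4 members. The 4 arose when IgG replicate 2 was dropped, beside 6.38% of all genes. For the other tumors dropped, the share of all genes lay between 7.68% and 17.8%. No member was at an adjusted p under 0.05 in any of these settings. Pathway genes at an unadjusted p under 0.05 numbered 14, and 7 to 20 when a tumor was left out. There were 20 with IgG replicate 1 dropped (17.8% of all genes) and 9 with IgG replicate 2 dropped (6.38%). With anti-PD-1 replicate 2 dropped there were 7 (9.28%). Pathway genes at an adjusted p under 0.05 numbered 0 to 1, the 1 being Epha2 without IgG replicate 1. Among all genes, leaving out IgG replicate 1 gave 12 adjusted calls and 2679 at an unadjusted p, and leaving out IgG replicate 2 gave 0 and 962, beside 0 and 1848. Of the neighbouring pairs in the order of levels, 4 to 5 held in all tumors, the 5 without IgG replicate 3. Same-numbered tumors did not deviate together (r of -0.16, 0.01 and 0.19), so the numbers were not taken to pair them. With the replicate block, 3 members and 13 pathway genes had an unadjusted p under 0.05, beside 11.4% of all genes. Depth limits Ereg in all tumors, Erbb4 in the anti-PD-1 tumors and Areg in IgG replicates 1 and 3 (31 and 11 reads).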
